A study of Rattus norvegicus with 6 samples.

Results

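The vacuolar ATPase and the proteases and membrane proteins of the lysosome were read in RCS cells and in rib tissue. Rows were taken by gene symbol alone, ignoring case: symbols that start with Atp6v or Atp6ap, Cts followed by 1 letter, and Lamp followed by 1 digit. The rule found 45 of the 27217 genes in the table. These were 13 genes of the V1 sector of the pump, 9 of its V0 sector, 3 accessory genes, 16 cathepsins and 4 lysosome-associated membrane proteins (LAMPs). The pump's a3 subunit gene (Tcirg1) and cathepsin L (listed as Ctsl1) carry symbols that the rule does not reach and are given separately.

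The table holds RNA-seq values of 3 libraries of RCS cells, which are 1 established line derived from a chondrosarcoma of the rat. It also holds 3 libraries of neonatal rat rib, labelled as rib tissue, for which no dissection of cartilage is described. No genotype, strain or treatment is given for either group, and the replicates are called biological without naming the cultures or animals behind them, so p-values measure the spread between these libraries. In bulk samples of this kind, fewer cells of a type and less RNA per cell cannot be told apart.

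The vacuolar ATPase is a rotary pump that uses ATP to move protons into endosomes, lysosomes and secretory vesicles. Its V1 sector, in the cytosol, splits ATP, and its V0 sector, in the membrane, carries the protons. The acid it makes activates the cathepsins, which digest proteins delivered to the lysosome. Cells that resorb bone and cartilage also place the pump at their surface and secrete cathepsin K.

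Values were read as normalized counts, that is read counts scaled by 1 factor per library and not divided by gene length. Levels are therefore compared between groups and not between genes. That reading rests on the spacing of low values and is uncertain, since the deposited values are labelled with both RPKM and DEseq. The RCS libraries held an estimated 6000000 to 8530000 gene reads each, and the rib libraries 5320000 to 7490000. A normalized count of 1 or less is listed as 0. Differences are means of log2(normalized count + 1) in RCS cells minus rib tissue, tested with limma over 16809 genes, with 0.05 as the limit for the Benjamini-Hochberg adjusted p. Folds are 2 to the power of that difference and are left out where a group averaged under 10. Of all genes tested, 76.5% were called, 32.9% higher and 43.6% lower in RCS cells, and 78.9% did not overlap between the groups. Among them, 1947 were listed at 0 in every RCS library and could only come out lower. Only 134 were listed at 0 in every rib library and could only come out higher. The all-gene shares include these genes, so a list with few of them is set against an uneven measure. The 9 chondrocyte markers summed to between 56918 and 77662 in RCS cells and between 102068 and 170185 in rib tissue, with none listed at 0 in every RCS library. By limma with Benjamini-Hochberg, 2 of the 9 were lower in RCS cells (Col2a1, which takes up most of the rib sums, and Col11a2), 2 were higher (Matn1 at 3.25-fold and Comp at 1.40-fold) and 5 were neither. Rib tissue also held osteoblast markers (1081 to 1240 summed over 7 genes in RCS cells, against 25813 to 60891, mostly Col1a1 and Col1a2; 5 were lower in RCS cells, and Sp7 and Alpl were neither) and skeletal muscle markers (177 to 214 over 7 genes in RCS cells, against 22419 to 40432).

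Of the 45 genes, 37 passed the filter on low values, and the other 8 were listed at 0 in all 6 libraries. In limma with Benjamini-Hochberg adjustment, 14 were higher and 16 lower in RCS cells and 7 were neither, so 81.1% were called, a share near that of all genes. Of the 37, 29 did not overlap between the groups, and 5 were at least 2-fold higher and 9 at least 2-fold lower, against 47.2% of all genes at least 2-fold apart (14.1% higher and 33.1% lower). The median difference was 0.02 over these 37 genes and -0.15 over all genes tested. Atp6v0d2 and Ctsc were listed at 0 in every RCS library and passed the filter through rib tissue, so they could only come out lower. With other between-library scaling the balance of directions turned, with 20 of the 45 genes higher and 12 lower under quantile normalization and 19 higher and 12 lower under median scaling. Cyclic loess gave 15 higher and 14 lower. Quantile normalization moved the median of all genes by 0.475 towards RCS cells, median scaling by 0.29 and cyclic loess by 0.18. Median scaling adds that 0.29 to every difference. Over all genes, the share of calls that were higher in RCS cells, 43.0% on the deposited scale, became 61.9%, 53.5% and 50.1%.

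Genes of the V1 sector, the ATP-splitting part, were mostly higher in RCS cells. Of 12 tested, 7 were higher, 1 lower and 4 neither, with a median difference of 0.54. Higher genes made up 58.3% and lower genes 8.33%, against 32.9% and 43.6% of all genes tested. The all-gene share of lower genes includes genes listed at 0 in every RCS library, and no V1 gene tested was of that kind. Atp6v1c1 (ENSRNOG00000004846), which encodes the C subunit that joins the 2 sectors, had 619, 636 and 629.9 normalized counts in RCS cells and 295, 270.4 and 263 in rib tissue. Every RCS library lay far above every rib library, a 2.27-fold difference (log2 1.19, SE 0.08, limma Benjamini-Hochberg adjusted p 2.6e-06). Atp6v1f, a part of the rotor, had 277, 293 and 318 in RCS cells against 151, 153 and 134 in rib tissue. Atp6v1e1, a part of the outer stalk, had 501, 493 and 504 against 304, 308 and 269.5. The groups did not overlap for either gene, at 2.02-fold (limma Benjamini-Hochberg adjusted p 2.95e-05) and 1.70-fold (4.67e-05).

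The stalk gene Atp6v1g1 and the regulatory H subunit gene Atp6v1h stood apart by smaller amounts. Atp6v1g1 had 531, 550.1 and 531 normalized counts in RCS cells and 394, 349 and 366 in rib tissue. Atp6v1h had 379, 358 and 363 in RCS cells and 246, 283 and 229 in rib tissue. Both were 1.46-fold higher in RCS cells without overlap (limma Benjamini-Hochberg adjusted p 0.000273 for Atp6v1g1 and 0.00108 for Atp6v1h). Atp6v1h overlaps Rgs20 in the RefSeq annotation, and since the use of strand in the counting is not given, reads of such pairs cannot be told apart. Of the 45 genes, 15 overlap another RefSeq gene, and RefSeq also holds pseudogenes or copies named after Atp6v1a, Atp6v1e1 and Atp6v1g1.

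The catalytic head showed differences that did not pass the test. Atp6v1a, the catalytic subunit, had 455, 458 and 367 normalized counts in RCS cells and 391, 316 and 354 in rib tissue. Atp6v1b2, the widely expressed partner of the A subunit, had 500.2, 547 and 488 in RCS cells and 495, 447 and 393 in rib tissue. In both genes the groups overlapped, with differences of 0.27 (95% interval -0.01 to 0.54, limma Benjamini-Hochberg adjusted p 0.0692) and 0.21 (-0.03 to 0.44, 0.0978). Atp6v1a was called higher without RCS cells replicate 3 (0.37) or rib tissue replicate 1 (0.34), and Atp6v1b2 without rib tissue replicate 1 (0.28); both were also called under quantile normalization (0.32 and 0.28) and median scaling (0.56 and 0.50). The rotor gene Atp6v1d had 269, 291 and 355 against 266, 299 and 324, a difference of 0.04 (-0.25 to 0.33) whose sign changed under cyclic loess (-0.16) and which was called under median scaling (0.33).

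V1 paralogs best known from kidney, neurons or testis were low in both groups. Atp6v1b1, the kidney form of the B subunit, had 9.72, 11.2 and 13.8 normalized counts in RCS cells and 10.9, 12.3 and 15.2 in rib tissue, fully interleaved (difference -0.13, 95% interval -0.75 to 0.48), and turned positive under quantile normalization (2.16) and cyclic loess (1.46). Atp6v1c2, a second C subunit gene, had 59.7, 61.2 and 72.7 in RCS cells against 28.6, 19.8 and 44.0 in rib tissue, 2.16-fold higher in RCS cells (limma Benjamini-Hochberg adjusted p 0.00717). The difference, 1.11 on the log2 scale, was 2.51 under quantile normalization, and the gene overlaps Nol10 in RefSeq. Atp6v1g2, the neuronal G subunit gene, which overlaps Nfkbil1, had 8.48, 14.3 and 23.3 in RCS cells and 5.31, 4.10 and 0 in rib tissue.

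The Atp6v1g2 difference of 2.26 (SE 0.70, limma Benjamini-Hochberg adjusted p 0.0176) was called, but not without RCS cells replicate 3 (1.92), and it was 1.43 without rib tissue replicate 3 and 3.93 under quantile normalization. Atp6v1e2, a second E subunit gene known from testis, had 1.09, 0 and 0 in RCS cells and 3.24, 1.03 and 6 in rib tissue, at the level of single reads. The libraries overlapped at this level. Its call of lower (-1.62, limma Benjamini-Hochberg adjusted p 0.0201) was lost when any 1 of 4 libraries was left out: RCS cells replicate 2 or 3 (both -1.44), rib tissue replicate 1 (-1.56) or replicate 3 (-1.20). The sign turned under quantile normalization (0.66) and cyclic loess (0.87). Atp6v1g3, the kidney G subunit gene, was listed at 0 in all 6 libraries.

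**Figure D1:**
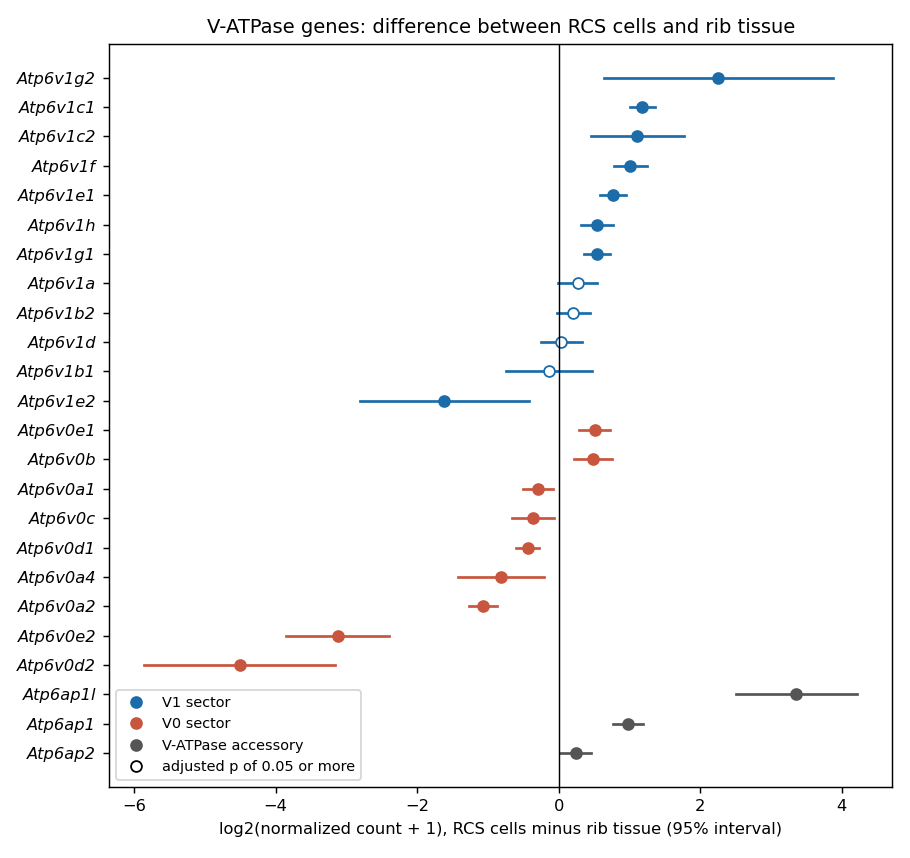
Difference in log2(normalized count + 1), RCS cells minus rib tissue, for the 24 V-ATPase genes tested, with 95% intervals from limma; filled points have an adjusted p under 0.05. V1 genes lie mostly right of 0, led by Atp6v1c1 (1.19) among those well above single reads, and V0 genes mostly left of 0, down to Atp6v0e2 (-3.12) and Atp6v0d2 (-4.51).

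Genes of the V0 sector, the membrane part, were mostly lower in RCS cells. Of 9 tested, 7 were lower and 2 higher, with a median difference of -0.44. These are 77.8% and 22.2%, against 43.6% and 32.9% of all genes tested. Among the 7, Atp6v0d2 could only come out lower, and the row labelled Atp6v0a2 is of uncertain identity. The lower count was 5 under quantile normalization, 3 under median scaling, 5 without limma's trend and 4 without rib tissue replicate 2. The widest gaps were in Atp6v0d2 and Atp6v0e2, each the less common form of its own subunit. Atp6v0d2, a d subunit gene known from osteoclasts, was listed at 0 in the 3 RCS libraries and had 60.3, 16.4 and 10 normalized counts in rib tissue (limma Benjamini-Hochberg adjusted p 0.000152). Atp6v0e2, a second gene for the small e subunit, had 8.71, 8.82 and 12 in RCS cells and 118, 117 and 58.0 in rib tissue (3.29e-05 by limma with Benjamini-Hochberg). Their common counterparts behaved differently from them and from each other. Atp6v0d1 had 409, 429.5 and 424 in RCS cells and 559.9, 575 and 576 in rib tissue, 1.35-fold more than in RCS cells (limma Benjamini-Hochberg adjusted p 0.000488). Atp6v0e1 had 248, 267 and 243 in RCS cells and 191, 169 and 171 in rib tissue, 1.43-fold higher in RCS cells (0.0012 by limma with Benjamini-Hochberg). The Atp6v0d1 call was lost under median scaling (-0.15). Under quantile normalization the difference was -2.17 for Atp6v0d2 and -1.79 for Atp6v0e2, both still called, and under cyclic loess it was 0.28 for Atp6v0e1, also still called.

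The a subunits, which form the proton path and direct the pump to its membrane, were lower in RCS cells in each form listed. The row labelled Atp6v0a2 (ENSRNOG00000001019) had 291, 335 and 318 normalized counts in RCS cells and 691, 631 and 658 in rib tissue, 2.10-fold more than in RCS cells (limma Benjamini-Hochberg adjusted p 7.49e-06). Its identity is uncertain: the table describes that row as Tectonic-2, and the gene for it, Tctn2, neighbours Atp6v0a2 in RefSeq. Tcirg1, the a3 subunit gene that osteoclasts need to resorb bone, had 203, 174 and 205 in RCS cells against 392.5, 308 and 322 in rib tissue, 1.75-fold more than in RCS cells (0.000356 by limma with Benjamini-Hochberg).

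Atp6v0a1, the most widely expressed a subunit gene, differed less. It had 527, 472 and 462 normalized counts in RCS cells and 624, 622 and 540.4 in rib tissue, differing by -0.29 (SE 0.09, limma Benjamini-Hochberg adjusted p 0.0194). Leaving out RCS cells replicate 2 (-0.27) or 3 (-0.25) or rib tissue replicate 1 (-0.25) or 2 (-0.26) ended the call, and the difference was 0.0018 under median scaling. Atp6v0a4, the kidney form, had 41.2, 38.1 and 45.3 in RCS cells and 51.5, 71.4 and 108 in rib tissue (-0.81, SE 0.26, 0.0212 by limma with Benjamini-Hochberg). Leaving out RCS cells replicate 1 (-0.81) or 2 (-0.75) or rib tissue replicate 2 (-0.83) ended the call, the difference was -0.54 without rib tissue replicate 3, and its sign turned under quantile normalization (0.22). It overlaps Kiaa1549 and Tmem213 in RefSeq.

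The proteolipids that make up the rotating ring moved in opposite directions. Atp6v0c, the main ring subunit, had 239.7, 254 and 189 normalized counts in RCS cells and 311, 294 and 266 in rib tissue (difference -0.36, SE 0.13, limma Benjamini-Hochberg adjusted p 0.0316). Atp6v0b, the other ring subunit, had 172, 169.6 and 156 in RCS cells and 128, 123 and 105 in rib tissue (0.48, SE 0.12, 0.00536 by limma with Benjamini-Hochberg). The groups did not overlap for either gene. The Atp6v0c call ended when RCS cells replicate 3 (-0.23) was left out, or replicate 1 (-0.31) or 2 (-0.35) of rib tissue, and the difference was -0.066 under median scaling, and -0.31 and not called under quantile normalization. The Atp6v0b call was lost under cyclic loess (0.26). RefSeq holds 2 pseudogenes named after Atp6v0c, so its counts are uncertain.

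The accessory genes were higher in RCS cells. Atp6ap1, which encodes a V-ATPase assembly and sorting protein, had 1341, 1360.2 and 1245 normalized counts in RCS cells against 620.3, 635 and 744 in rib tissue, 1.98-fold higher in RCS cells (limma Benjamini-Hochberg adjusted p 2.1e-05). Atp6ap1l, its less studied relative, had 42.8, 45.6 and 66.8 in RCS cells and 2.20, 4.10 and 6.82 in rib tissue (5.73e-05 by limma with Benjamini-Hochberg). Neither gene's groups overlapped, and Atp6ap1l overlaps the ribosomal protein gene Rps23 in RefSeq. Atp6ap2, the prorenin receptor, had 229, 247 and 247 in RCS cells and 217, 207 and 189.8 in rib tissue, differing by 0.24 (SE 0.09, limma Benjamini-Hochberg adjusted p 0.0427). That call was lost under cyclic loess (0.011), with the replicate block (0.0775, limma with Benjamini-Hochberg) and without any 1 of RCS cells replicates 1 to 3 (0.28, 0.22 and 0.22) or rib tissue replicates 2 and 3 (0.25 and 0.19).

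Ratios of 2 genes within a library do not depend on the factor that scales that library. Gene length cancels when such a ratio is compared between groups. Atp6v1c1 over Atp6v0d1 was 1.51, 1.48 and 1.49 in RCS cells and 0.526, 0.471 and 0.457 in rib tissue. Atp6v0e1 over Atp6v0e2 was 28.5, 30.2 and 20.2 in RCS cells and 1.62, 1.45 and 2.95 in rib tissue. Atp6v0a1 over Tcirg1 was 2.59, 2.71 and 2.25 in RCS cells and 1.59, 2.02 and 1.68 in rib tissue. Atp6v1c1 is the V1 gene with the largest difference among those well above single reads, and 2 other V1 genes set over Atp6v0d1 gave smaller gaps. Atp6v1a over Atp6v0d1 was 1.11, 1.07 and 0.865 in RCS cells and 0.698, 0.55 and 0.614 in rib tissue. Atp6v1d over Atp6v0d1 was 0.658, 0.677 and 0.837 in RCS cells and 0.475, 0.52 and 0.562 in rib tissue. The groups were apart in these 5 ratios. They overlapped for Atp6v0a1 over Atp6v0a4, for Atp6v1b2 over Atp6v1b1 and for Atp6v1c1 over Atp6v1c2, the last at 10.4, 10.4 and 8.67 in RCS cells and 10.3, 13.7 and 5.97 in rib tissue. The ratios of V1 to V0 genes were all taken over Atp6v0d1, which was lower in RCS cells. Atp6v0b and Atp6v0e1 were higher there by 0.48 and 0.51 on the log2 scale, more than Atp6v1a (0.27) and Atp6v1d (0.04). For Atp6v1a and Atp6v1d the direction of such a ratio thus depends on the V0 gene set below them. The difference between the V1 and V0 sectors was not tested as a set.

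Among the lysosomal membrane proteins, which line the inner face of the lysosome's membrane, the main members went in opposite directions. Lamp1 (ENSRNOG00000019629) had 1469, 1539 and 1357 normalized counts in RCS cells and 975, 958 and 915 in rib tissue, 1.53-fold higher in RCS cells (limma Benjamini-Hochberg adjusted p 0.000137). Lamp2, whose product also serves chaperone-mediated autophagy, had 314, 332 and 324 in RCS cells and 466, 495 and 567 in rib tissue, 1.57-fold more than in RCS cells (0.000258 by limma with Benjamini-Hochberg). The ratio of Lamp1 to Lamp2 was therefore 4.68, 4.64 and 4.19 in RCS cells and 2.09, 1.94 and 1.61 in rib tissue. The groups do not overlap in either gene or in the ratio. Lamp3, known from dendritic cells, and Lamp5, known from neurons, were listed at 0 in all 6 libraries.

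Lysosomal genes are known targets of TFEB and its relatives, transcription factors that bind an E-box in promoters. The 250 bases before each gene's start, from RefSeq (GRCr8), were searched for the E-box CACGTG, which reads the same on both strands, and for the longer form TCACGTG on either strand, which contains it. Of 45 genes, 37 were in the promoter table, and 4 of these held CACGTG (10.8%, against 5.59% of all 33469 promoters). The longer form was in 3 (8.11%, against 2.79%). None of the 10 V1 promoters in the table held either, and Atp6v1b2, Atp6v1c1 and Atp6v1h were not among them. The Lamp1 window held 5 E-boxes, which begin 183, 167, 150, 65 and 38 bases before the start. Ctsd held 2, at 157 and 10 bases, Ctsf held 1 at 149, and Atp6v0d1 held 1 at 52. A match describes these letters and not binding, and no match says only that they are absent from this window. The windows of Lamp1 (chr16:83075064-83075313, minus strand) and Lamp2 (chrX:122087674-122087923, minus strand) are shown because these genes differed in opposite directions, and that of Atp6v0d1 (chr19:50357249-50357498, minus strand) because it was the V-ATPase gene with a match. All are GRCr8, and capitals mark the matches, in the longer form where present.
Lamp1: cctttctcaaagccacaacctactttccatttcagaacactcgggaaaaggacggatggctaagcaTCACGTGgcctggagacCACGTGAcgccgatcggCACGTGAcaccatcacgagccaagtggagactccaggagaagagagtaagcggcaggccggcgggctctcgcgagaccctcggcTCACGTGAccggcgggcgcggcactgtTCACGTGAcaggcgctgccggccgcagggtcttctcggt
Lamp2: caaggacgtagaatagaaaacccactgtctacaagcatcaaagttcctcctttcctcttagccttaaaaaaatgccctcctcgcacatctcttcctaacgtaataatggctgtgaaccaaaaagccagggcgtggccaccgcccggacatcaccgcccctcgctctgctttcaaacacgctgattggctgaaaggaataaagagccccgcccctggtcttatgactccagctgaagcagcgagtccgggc
Atp6v0d1: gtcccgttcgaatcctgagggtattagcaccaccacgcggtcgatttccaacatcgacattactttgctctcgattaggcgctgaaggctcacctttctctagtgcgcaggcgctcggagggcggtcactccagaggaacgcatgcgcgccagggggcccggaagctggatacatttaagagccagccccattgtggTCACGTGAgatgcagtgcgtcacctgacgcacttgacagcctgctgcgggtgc

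Among the cathepsins, Ctsd was higher in RCS cells, Ctsb and Ctsh were lower, the groups overlapped for Ctsa and Ctsf, and Ctsc, Ctsk, Ctss and Ctsz were at or near 0 in RCS cells. Of 16 in the table, 11 were tested, with 1 higher in RCS cells, 7 lower and 3 neither. Lower genes made up 63.6% and higher genes 9.09%, against 43.6% and 32.9% of all genes tested. Of the 7 lower, Ctsc had its direction fixed by RCS values of 0. Ctsw, also of the 7, turned to a call of higher by quantile normalization and by cyclic loess. The higher count was 4 under quantile normalization and 3 under median scaling or cyclic loess. Ctsd (ENSRNOG00000020206), the main aspartic protease of the lysosome, was the higher one, with 1527, 1560.3 and 1438 normalized counts in RCS cells and 1073, 1076 and 1090.5 in rib tissue. The groups were well apart, at 1.40-fold (limma Benjamini-Hochberg adjusted p 0.000331). It overlaps the muscle troponin gene Tnni2 in RefSeq. Ctsl1, which encodes the cysteine protease cathepsin L and lies outside the symbol rule, was also higher, with 1047, 1048 and 1049.6 in RCS cells and 608, 647 and 705 in rib tissue (1.61-fold, limma Benjamini-Hochberg adjusted p 7.3e-05).

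The cysteine proteases Ctsb and Ctsh were lower in RCS cells but still well expressed there. Ctsb, an abundant endopeptidase and dipeptidase, had 813, 838 and 850.0 normalized counts in RCS cells and 1396, 1293 and 1371 in rib tissue, 1.62-fold more than in RCS cells (limma Benjamini-Hochberg adjusted p 3.52e-05). Ctsh, an aminopeptidase, had 246, 259 and 273 in RCS cells and 425, 469 and 481 in rib tissue, 1.76-fold more than in RCS cells (4.3e-05 by limma with Benjamini-Hochberg). No library of one group reached the other in either gene. The ratio of Ctsd to Ctsb was 1.88, 1.86 and 1.69 in RCS cells and 0.769, 0.832 and 0.796 in rib tissue.

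For Ctsa and Ctsf the groups overlapped. Ctsa, a serine carboxypeptidase that also protects lysosomal galactosidase and neuraminidase, had 903, 908 and 863 normalized counts in RCS cells and 802, 817 and 898 in rib tissue. Ctsa overlaps Neurl2 and Pltp in RefSeq. The difference was 0.09 (95% interval -0.09 to 0.26), and it was called under quantile normalization (0.25) and median scaling (0.38). Ctsf, a cysteine protease, had 293, 324 and 336 against 282, 327 and 328, a difference of 0.02 (-0.20 to 0.25) that was called under median scaling (0.31) and turned to -0.17 under cyclic loess.

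A group of 4 cathepsins was at or near 0 in RCS cells and abundant in rib tissue. Ctsk (ENSRNOG00000021155), the collagen-degrading protease of osteoclasts that fibroblasts also make, had 1.09, 1.94 and 2.58 normalized counts in RCS cells and 673, 585 and 497 in rib tissue. Ctsc, the dipeptidyl peptidase that activates granule serine proteases of immune cells, was listed at 0 in the 3 RCS libraries and had 307, 442 and 231 in rib tissue. Ctsz, a carboxypeptidase common in myeloid cells, had 3.49, 2.09 and 3.95 in RCS cells and 328, 296 and 322 in rib tissue. These RCS values are a few reads per library. Ctss, the cysteine protease of antigen-presenting cells, had 1.63, 1.04 and 1.42 in RCS cells and 109, 103 and 50.5 in rib tissue.

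By limma with Benjamini-Hochberg, the adjusted p was 7.09e-08 for Ctsk, 1e-07 for Ctsc, 1.31e-07 for Ctsz and 3.08e-06 for Ctss. The Ctsc test had its direction fixed beforehand by RCS values of 0. Together the 4 genes took 0.164%, 0.13% and 0.21% of the summed cathepsin counts in RCS cells and 26.2%, 26.3% and 20.8% in rib tissue. The 5 genes Ctsa, Ctsb, Ctsd, Ctsf and Ctsh summed to 3782, 3889 and 3760.3 in RCS cells and 3978.5, 3982 and 4168 in rib tissue. These sums are not weighted by gene length. Ctsz overlaps Nelfcd in RefSeq.

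**Figure D2:**
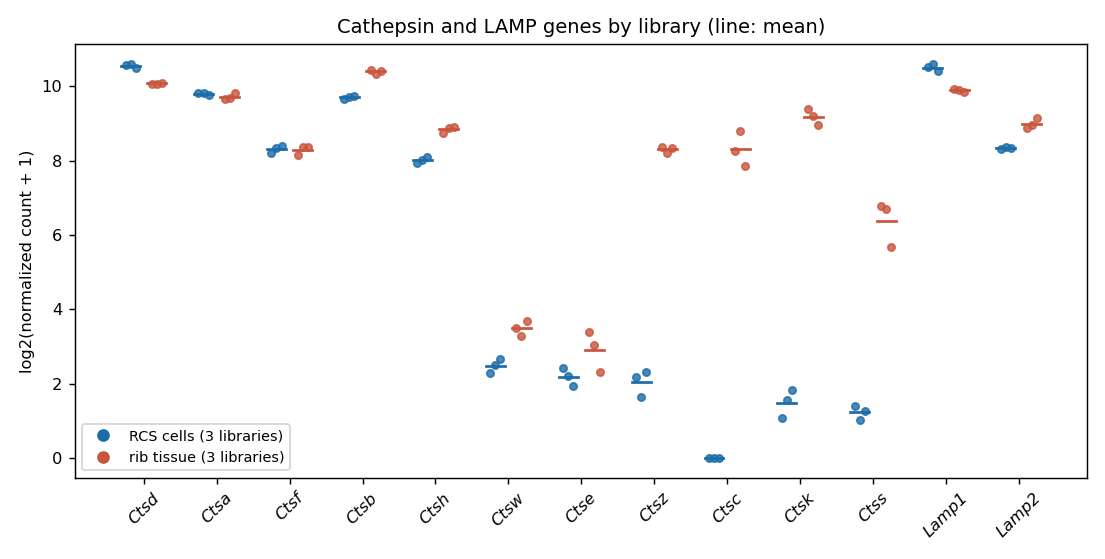
Log2(normalized count + 1) of the 11 cathepsins tested and of Lamp1 and Lamp2 in each library, with RCS cells left of rib tissue and a line at each mean. Ctsz, Ctsc, Ctsk and Ctss stand near 0 in RCS cells and high in rib tissue, while Ctsd and Lamp1 are higher in RCS cells and Ctsb, Ctsh and Lamp2 lower.

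The other cathepsins were rare or not seen. Ctsw, known from cytotoxic lymphocytes, had 3.86, 4.61 and 5.30 normalized counts in RCS cells and 10.2, 8.70 and 11.9 in rib tissue. It was lower in RCS cells (difference -1.01, limma Benjamini-Hochberg adjusted p 0.00904), but was called higher under quantile normalization (1.69) and cyclic loess (0.82). Ctse, an aspartic protease of immune and gastric cells, had 4.35, 3.63 and 2.83 against 9.40, 7.18 and 4 and did not pass the test. Its difference of -0.72 was called without rib tissue replicate 3 (-1.01). It was called in the other direction under quantile normalization (1.93) and cyclic loess (1.26). Ctsg, a serine protease of neutrophils and mast cells, was listed at 0 in all 6 libraries, as were Ctsj, Ctsm, Ctsq and Ctsr, which are known from the rodent placenta.

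Markers of bone-resorbing and myeloid cells were mostly lower in RCS cells, as were those of muscle, fibroblasts and osteoblasts. Of 12 osteoclast markers, 7 were listed at 0 in every RCS library (Acp5, Ocstamp, Calcr, Itgb3, Tnfrsf11a, Siglec15 and Trem2). The list summed to between 153 and 201 in RCS cells, mostly Nfatc1 (188, 162 and 132), and between 826 and 2624 in rib tissue. Of 18 macrophage and myeloid markers, 11 were listed at 0 in every RCS library, among them Ptprc, Spi1 and the C1q genes, and the list summed to between 125 and 135 in RCS cells and between 1825 and 3299 in rib tissue. By limma with Benjamini-Hochberg, 9 of 11 osteoclast markers (not Oscar or Dcstamp) and all 17 myeloid markers tested were lower in RCS cells. Of these, 6 osteoclast and 10 myeloid markers were listed at 0 in every RCS library and were tested because of their rib tissue values, so lower was the one direction open to them. The granulocyte and mast cell list summed to between 201 and 212 in RCS cells, mostly Kit (204, 193 and 186). In rib tissue it summed to between 495 and 691, and 7 of its 10 genes were listed at 0 in every RCS library.

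The rib libraries differed in these markers. The osteoclast list summed to 2624, 1463 and 826 in rib tissue replicates 1, 2 and 3. Its largest parts were Mmp9 (1059, 422 and 99.2), Nfatc1 (613, 469 and 521) and Acp5 (539, 221.5 and 71.0). In the same libraries Atp6v0d2 had 60.3, 16.4 and 10, Ctsk 673, 585 and 497, and Tcirg1 392.5, 308 and 322. The myeloid list summed to 3299, 3299 and 1825, where Ctss had 109, 103 and 50.5. Atp6v0d2, Ctsk, Ctss and Ctsc (307, 442 and 231) were lowest in replicate 3, while Tcirg1 and Ctsz (328, 296 and 322) were lowest in replicate 2. Replicate 3 also had the lowest osteoclast, myeloid, osteoblast, muscle and fibroblast sums of the rib libraries. The 7 fibroblast markers summed to 155 to 176 in RCS cells, where Dpt, Dcn and Fap were listed at 0, and to 24449, 21704 and 18540 in rib tissue. What part these cells have in the differences of Atp6v0d2, Tcirg1, Ctsk, Ctsc, Ctss and Ctsz was not tested.

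**Figure D3:**
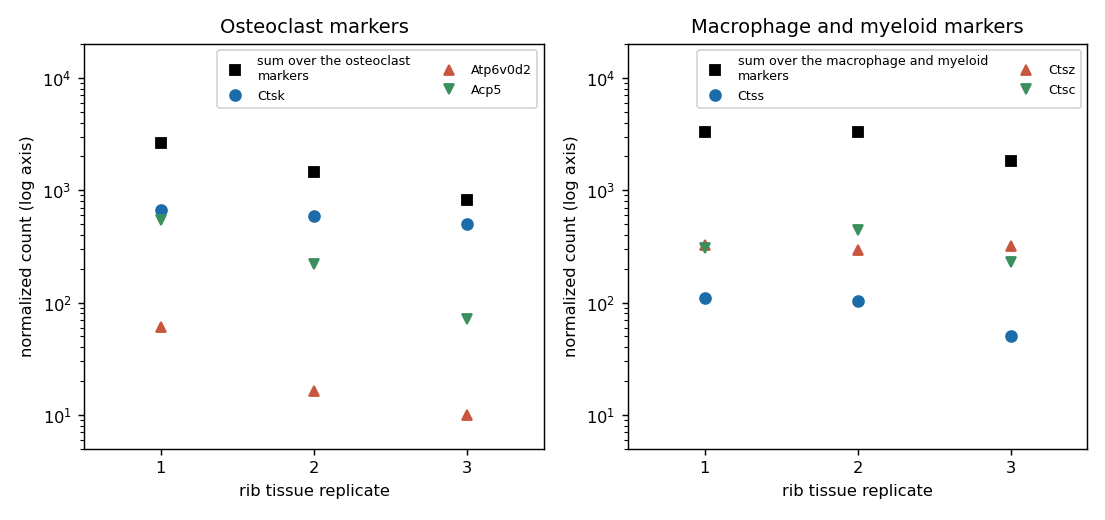
Normalized counts (log axis) in the 3 rib tissue libraries of Ctsk, Atp6v0d2 and Acp5 beside the summed osteoclast markers, and of Ctss, Ctsz and Ctsc beside the summed macrophage and myeloid markers. Acp5 is itself part of the osteoclast sum. Atp6v0d2 was 60.3 in the library with the highest osteoclast sum (2624) and 10 in that with the lowest (826), while Ctsz was between 296 and 328.

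Other genes of the lysosome were read from lists to place the 45 genes in their pathway. Of 133 further genes found in the table, 130 were tested. In RCS cells 57 were higher and 39 lower, and 34 were neither, so 73.8% were called, against 76.5% of all genes. The shares were 43.85% higher and 30% lower, against 32.9% and 43.6% of all genes tested. Those all-gene shares are the measure for each list that follows. Of 35 sugar chain and lipid hydrolases, 18 were higher (51.4%), 7 lower (20%) and 10 neither. Galc, the galactosylceramidase gene, was 3.18-fold higher in RCS cells (243, 218 and 266 normalized counts against 71.9, 88.3 and 67.2), and Gaa, acid alpha-glucosidase, was 1.49-fold higher. Acp5, the tartrate-resistant phosphatase of osteoclasts, was listed at 0 in the RCS libraries and had 539, 221.5 and 71.0 in rib tissue. Psap, the saposin precursor, differed by 0.07 and passed the test as higher under each rescaling, with 0.55 by quantile normalization, 0.36 by median scaling and 0.25 by cyclic loess.

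Of 10 proteases outside the cathepsin symbols, RCS cells were higher for 5 and lower for 1, and 4 were neither. Lgmn, the asparaginyl protease legumain that processes cathepsins, had 981, 919 and 868.5 normalized counts in RCS cells and 469, 474.5 and 406 in rib tissue, 2.05-fold higher in RCS cells. Prcp, a serine carboxypeptidase, was 1.68-fold higher in rib tissue. Limma with Benjamini-Hochberg gave an adjusted p of 1.42e-05 for Lgmn and 0.00254 for Prcp. Of 27 membrane and ion transport genes, 11 were higher, 10 lower and 6 neither, from Tmem192 (3.11-fold higher in RCS cells) to the macrophage metal transporter Slc11a1 (listed at 0 in the RCS libraries, 8.33, 16.7 and 9.26 in rib tissue).

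Genes that sort enzymes to the lysosome were more often higher, 11 of 17, with 2 lower and 4 neither. The shares were 64.7% higher and 11.8% lower, against 32.9% and 43.6% of all genes tested. Nagpa, which uncovers the mannose 6-phosphate tag, was 2.73-fold higher in RCS cells. Igf2r, the large receptor for that tag, had 3202, 2666 and 2311 normalized counts in RCS cells and 5299.6, 4954 and 4972 in rib tissue, 1.88-fold more than in RCS cells, and this difference was -0.011 under quantile normalization. Limma with Benjamini-Hochberg gave an adjusted p of 0.000121 for Nagpa and 0.00025 for Igf2r on the deposited scale. Gga2, an adaptor for these receptors, was 2.02-fold higher in rib tissue.

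Of 12 V-ATPase partners outside the symbol rule, RCS cells were higher for 6 and lower for 4, and 2 were neither. Ccdc115, an assembly factor of the V0 sector, had 407, 413 and 431 normalized counts in RCS cells and 172, 195 and 227 in rib tissue, 2.11-fold higher in RCS cells. Dmxl1, a part of the complex that joins V1 to V0, was 2.17-fold higher in rib tissue, as was Ncoa7, which binds the pump, at 3.15-fold. By limma with Benjamini-Hochberg the adjusted p was 3.79e-05 for Ccdc115, 1.26e-05 for Dmxl1 and 1.38e-05 for Ncoa7. 

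No TFEB family gene was called higher in RCS cells on the deposited scale. Tfeb had 205, 185 and 179 normalized counts in RCS cells and 264, 231 and 199 in rib tissue, with overlap, and its difference of -0.28 (SE 0.12, limma Benjamini-Hochberg adjusted p 0.0684) was called without rib tissue replicate 3 (-0.38), with the replicate block (0.0433, limma with Benjamini-Hochberg) and under cyclic loess (-0.51), and turned to 0.013 under median scaling. Tfe3 had 314, 317 and 293 in RCS cells and 309.6, 292 and 314 in rib tissue, differing by 0.01 that was called under median scaling (0.30). Mitf had 85.2, 99.8 and 116 in RCS cells and 137, 160.0 and 271 in rib tissue, 1.81-fold more than in RCS cells (0.013 by limma with Benjamini-Hochberg), which did not pass the test after quantile normalization or after median scaling (both -0.56) and was -0.56 without rib tissue replicate 3. Tfec, the myeloid member, was listed at 0 in the RCS libraries and had 11.7, 13.3 and 5.96 in rib tissue. It was tested because of its rib tissue values, so it could only come out lower.

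Of 7 cathepsin inhibitors tested, 5 were lower in RCS cells, 1 higher and 1 neither. Lower genes were thus 71.4% and higher genes 14.3%, against 43.6% and 32.9% of all genes tested. Cst3, the secreted cystatin C, had 403, 478 and 423 normalized counts in RCS cells and 538, 496 and 661 in rib tissue, 1.29-fold more than in RCS cells. Cstb, the cytosolic cystatin B, had 112, 113 and 129.6 in RCS cells and 137, 158 and 153 in rib tissue, 1.27-fold more than in RCS cells. The limma Benjamini-Hochberg adjusted p was 0.0222 for Cst3 and 0.0268 for Cstb. Both calls were lost under quantile normalization (-0.29 and -0.070), under median scaling (-0.079 and -0.049) and without RCS cells replicate 1 (-0.32 and -0.30). Cst3 was also lost without RCS cells replicate 3 (-0.35) or rib tissue replicate 3 (-0.25), and Cstb without RCS cells replicate 2 (-0.31) or rib tissue replicate 2 (-0.30). Serpinb6, an intracellular serpin, was 1.35-fold higher in RCS cells.

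The remaining inhibitors were low. Cst7, cystatin F of immune cells, had 9.31, 4.23 and 2.13 normalized counts in RCS cells and 24.0, 20.1 and 23.8 in rib tissue, lower in RCS cells by limma with Benjamini-Hochberg (adjusted p 0.00215). Cst6, cystatin M, and Ctla2a, an inhibitor resembling a cathepsin propeptide, were listed at 0 in the RCS libraries, with 5.31, 4.10 and 3 and with 18.4, 32.7 and 13 in rib tissue. Both were tested because of their rib tissue values, so 2 of the 5 lower inhibitors had that direction fixed. The Cst6 and Cst7 calls were lost under quantile normalization (-0.043 and 0.249) and cyclic loess (0.15 and -0.44), with a change of sign for Cst6 under cyclic loess and for Cst7 under quantile normalization. Serpinb9, which inhibits granzyme B, had 57.7, 70.3 and 83.6 in RCS cells and 45.3, 92.6 and 52.7 in rib tissue, with overlap, and its difference of 0.20 was called under quantile normalization (1.14) and turned to -0.0026 without rib tissue replicate 1.

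**Figure D4:**
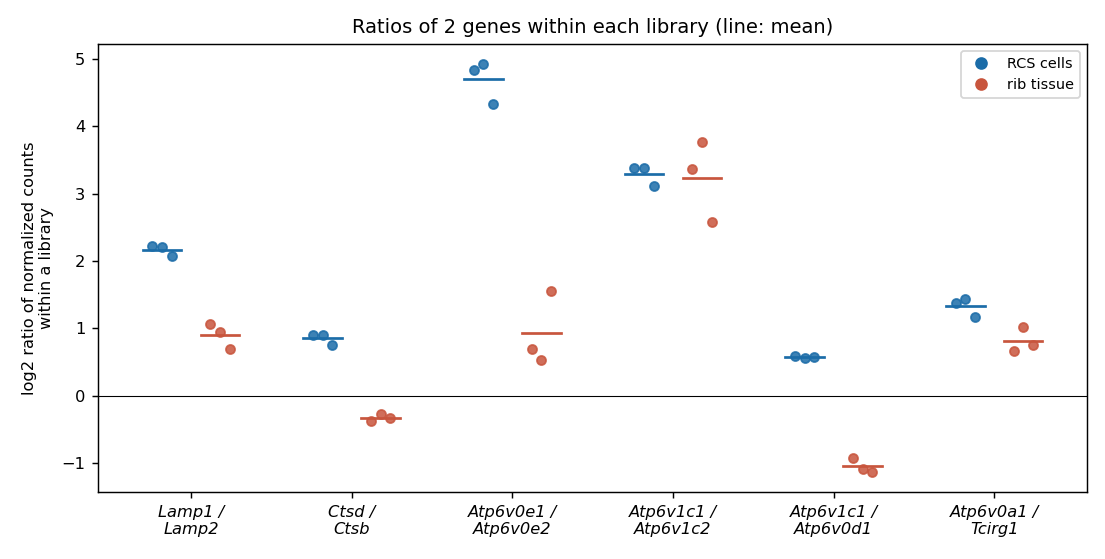
Log2 ratio of 2 genes within each library, with RCS cells left of rib tissue and a line at each mean. The groups are apart for Lamp1 over Lamp2, Ctsd over Ctsb, Atp6v0e1 over Atp6v0e2, Atp6v1c1 over Atp6v0d1 and Atp6v0a1 over Tcirg1, and overlap for Atp6v1c1 over Atp6v1c2.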

How the data were processed

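RNA-seq of 3 RCS cell and 3 rib tissue libraries was used; groups and replicate numbers came from sample titles. The authors deposited 1 table of log2 values. Per the submitters' processing notes, CASAVA 1.8, DESeq and rn5 were used, with no role given; no source used here gives the aligner, counting rule or strand use. Low values fell on multiples of 1 step per library, so values were read as log2 of counts divided by 1 factor per library. Only 38.5% to 54.6% of the low values per library came out whole (tolerance 0.01 reads; 2% by chance), so no count model was used. Depth is the summed normalized counts over that step.

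Log2(normalized count + 1) was fitted with limma 3.58.1 in R 4.3.3 (intensity trend, two-sided). The fit covered 16809 genes with at least 1 in at least 3 libraries, with Benjamini-Hochberg adjustment over them. It was tested on simulated data with few changed genes, all well above the floor. Those data cannot speak to scaling between libraries or to genes near 0. Of 206 list names, 3 had no match. All members may be named; list genes are the 2 highest, the extreme calls, and every TFEB family gene and inhibitor tested. RefSeq (GRCr8) gave neighbouring genes and promoters; 42 of 45 members matched it by Entrez ID. Alternatives were scaling, pseudocount, filter, weights, trend, replicate block and leaving out each library; their use on counts by class and on list genes was chosen after seeing the data. The members and lists were chosen with earlier results of these data known. No pair of libraries was identical (0 pairs).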

Additional observations from a re-analysis of the deposited data

How the results depend on the processing

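Of the 30 genes called among the 37 tested, 21 kept their direction and their call under the alternatives that could test them (11 higher and 10 lower in RCS cells). Over 16 alternatives the 37 genes gave 587 values, of which 520 kept direction and call, 33 lost the call, 16 gained one and 18 changed sign; the cause was not tested. The count of the 45 genes that were higher was 13 to 16 and lower 13 to 16 when 1 library was left out. Leaving out 1 library gave 5 to 7 V-ATPase genes lower in place of 8 (5 without RCS cells replicate 2 or 3 or rib tissue replicate 1 or 2), 11 to 14 higher, 2 cathepsin and LAMP genes higher, 8 to 9 lower, and 46 to 57 of the other lysosomal genes higher and 30 to 38 lower. Lower V-ATPase genes numbered 5 under quantile normalization and 4 under median scaling. Higher cathepsin and LAMP genes numbered 5 under quantile normalization and 4 under median scaling and cyclic loess in place of 2, and lower lysosomal genes outside the rule 23 and 24 under quantile normalization and median scaling in place of 39.

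Signs turned as follows. Under quantile normalization, differences were 0.223 for Atp6v0a4, 2.16 for Atp6v1b1, 0.66 for Atp6v1e2, 1.93 for Ctse, 1.69 for Ctsw and 0.249 for Cst7. Under median scaling they were 0.0018 for Atp6v0a1, 0.157 for Atp6v1b1 and 0.0129 for Tfeb. Under cyclic loess they were 1.46 for Atp6v1b1, -0.16 for Atp6v1d, 0.87 for Atp6v1e2, 1.26 for Ctse, -0.166 for Ctsf, 0.82 for Ctsw, -0.18 for Tfe3 and 0.15 for Cst6. Atp6v1b1, Ctse and Ctsw were called higher in RCS cells under both quantile normalization and cyclic loess. Array weights gave -0.000902 for Atp6v1d and -0.00995 for Serpinb9. Leaving out 1 library gave -0.0773 to 0.121 for Atp6v1d (below 0 without RCS cells replicate 3 or rib tissue replicate 1), -0.0488 to 0.0803 for Ctsf (below 0 without the same), -0.0026 to 0.506 for Serpinb9 (below 0 without rib tissue replicate 1) and -0.0189 to 0.0475 for Tfe3 (below 0 without RCS cells replicate 1 or 2 or rib tissue replicate 2).

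Same-numbered libraries did not deviate together (correlations across genes 0.0638, -0.0764 and 0.047), and other pairs gave -0.191 to 0.163. With 3 libraries per group, these correlations cannot show whether same-numbered libraries shared a batch. With the replicate block 14 of the 45 genes were higher and 16 lower, as without it; Atp6ap2 lost its call and Atp6v1a gained one (0.0499, limma adjusted p by Benjamini-Hochberg). Depth limits genes listed at 0 to at most 1.93 reads per library.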

Other observations

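Genes that sense nutrients at the lysosomal surface, through the mTOR kinase complex that docks there next to the vacuolar ATPase, went both ways. Among 18 tested, RCS cells were higher for 5 (27.8%) and lower for 8 (44.4%), and 5 did not pass the test. These shares are near the 32.9% higher and 43.6% lower of all genes tested. The median difference was -0.14 beside -0.15 over all genes tested. Rragd, one of the small GTPases that recruit the kinase, had 8.14, 15.4 and 22.4 normalized counts in RCS cells and 270.3, 228 and 115 in rib tissue, 12.7-fold more than in RCS cells (limma Benjamini-Hochberg adjusted p 6.52e-05). The groups did not overlap, and the rib library with the least Rragd was replicate 3, which also had the lowest summed muscle (22419), osteoblast (25813), osteoclast (826), myeloid (1825) and fibroblast (18540) markers of the 3; the part of these cells in the difference was not tested. Mtor, the kinase itself, had 951, 768 and 797 in RCS cells and 1502, 1449.7 and 1428 in rib tissue, 1.75-fold more than in RCS cells (8.79e-05 by limma with Benjamini-Hochberg). Rheb, the GTPase that activates it, had 452, 446 and 438 in RCS cells and 272, 220.0 and 236 in rib tissue, 1.84-fold higher in RCS cells (5.26e-05 by limma with Benjamini-Hochberg).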
